A study of Mus musculus with 2 samples.

Results

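Genes that hypoxia-inducible factors (HIF) switch on outside glycolysis were compared between the 4T1-3R liver metastatic cells and the 4T1 parental cells they derive from. The group holds 10 genes, Car9, Car12, Egln1, Egln3, Adm, Bnip3, Ndrg1, Ddit4, Ankrd37 and Bhlhe40, of 18193 genes on the arrays that have a probe set naming a single gene. They were chosen by name, as textbook HIF targets, with earlier results of these data known. Every probe set annotated with exactly 1 of these symbols was taken, which gave 19 probe sets. All 10 genes were measured, with signals at or above the floor of 90.6 on both arrays. The floor is the median of all signals of both arrays and stands in for the background.

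HIF is a pair of proteins, an oxygen-regulated alpha subunit such as Hif1a or Epas1 and the stable partner Arnt. With oxygen present, prolyl hydroxylases of the Egln family mark the alpha subunit, and the Vhl ubiquitin ligase then sends it to the proteasome. Without oxygen the pair builds up and binds hypoxia response elements, short DNA motifs with the core ACGTG or GCGTG, near genes for acid handling, blood vessel growth, mitochondrial turnover and oxygen sensing itself.

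The 4T1 line comes from a mammary carcinoma of a BALB/c mouse. The parental group is 1 array of total RNA from these cells in culture, and the 4T1-3R_L group is 1 array from cells taken out of liver metastases of the line and cultured. Both populations were grown under the same stated incubator conditions, with no genetic change or drug named for either. The labels name neither the oxygen level nor the culture density, nor how many mice were used or whether the 4T1-3R_L cells are a clone. With 1 array a group there are no replicates, no test was possible, and each value describes these 2 arrays. The number of arrays limits the precision, and a change in RNA per cell cannot be told apart from a change in the share of cells that express a gene.

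Both arrays carried the same trimmed mean signal, 500.003, as deposited. All 18 hybridisation control probe sets, which detect labelled cRNAs added at hybridisation, were higher on the 4T1-3R_L array, by a mean of 0.59 on the log2 scale. All 24 poly-A control probe sets, which detect transcripts added before labelling, were also higher, by 1.11. The ratio of 3′ to 5′ signal was 1.22 in parental and 1.59 in 4T1-3R_L cells for Actb, and 0.789 and 1.02 for Gapdh. The part of these differences in the results was not tested. Of 12 carcinoma markers 10 were measured on both arrays, with a median log2 ratio of -1.13. Only Krt8, at signals of 18784.3 and 21890.6, had a positive log2 ratio, and 9 had negative ones. The largest differences were those of Cldn7 (5432.2 and 151.0) and Krt14 (5324.3 and 170.9). In 4T1-3R_L cells 5 of these 10 were down 2-fold or more, and the summed signal of the list was 97485 in parental and 65203 in 4T1-3R_L cells. All 12 hepatocyte markers lay under the floor on both arrays, with Alb at 11.2 and 20.8. The pan-leukocyte gene Ptprc (21.7 and 26.5) and the endothelial gene Pecam1 did too. Of 10 macrophage markers 3 were measured, Csf1r (1026.4 and 88.1), Cd14 (748.6 and 458.8) and Cd68 (388.0 and 374.0). The whole list, genes under the floor included, summed to 2402 in parental and 1226 in 4T1-3R_L cells, with Csf1r the gene that differed most. Of 10 endothelial markers 2 were measured, Eng (1172.0 and 1247.7) and Tie1 (19.9 and 132.2), with whole-list sums of 1443 and 1623. Of 12 fibroblast markers 3 were measured and 9 lay under the floor on both arrays, Col1a1 among them at 11.4 and 7.9, with whole-list sums of 1257 and 2938. The fibroblast list was led by Pdgfra (676.2 and 2548.9), while Acta2 (205.3 and 158.9) and Des (106.4 and 15.9) read lower in 4T1-3R_L cells.

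The group divided into 3 sets. Egln3, Car9, Adm, Car12 and Bnip3 were up by 2-fold or more in 4T1-3R_L cells, Ddit4 and Bhlhe40 were down by 2-fold or more, and Ndrg1, Ankrd37 and Egln1 lay within 2-fold. Thus 5 of 10 members were up 2-fold or more, against 6.22% of the 11135 measured genes, and 2 of 10 were down as far, against 4.48%. The members were not chosen blind to these data, so these shares describe this list only. Counted by probe set, 8 of the 18 that reached the floor were up 2-fold or more, against 5.68% of all such single-gene probe sets, and 2 were down as far, against 4.74%. At 4-fold, 2 members were higher, against 1.02% of measured genes. A positive log2 ratio (4T1-3R_L over parental) was seen in 8 of 10 members and in 49.5% of measured genes. Of these 8, Egln1 (0.04) and Ankrd37 (0.07) were level, and median centring of the arrays made them -0.05 and -0.02. The median log2 ratio of the members was 0.88 and that of all measured genes -0.01. Their interquartile range, 1.72, was wider than the 0.73 of all measured genes. Among the 8821 genes with signals at least 2 times the floor on both arrays, which include all 10 members, 5.06% were up and 4.15% were down by 2-fold or more.

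**Figure D1:**
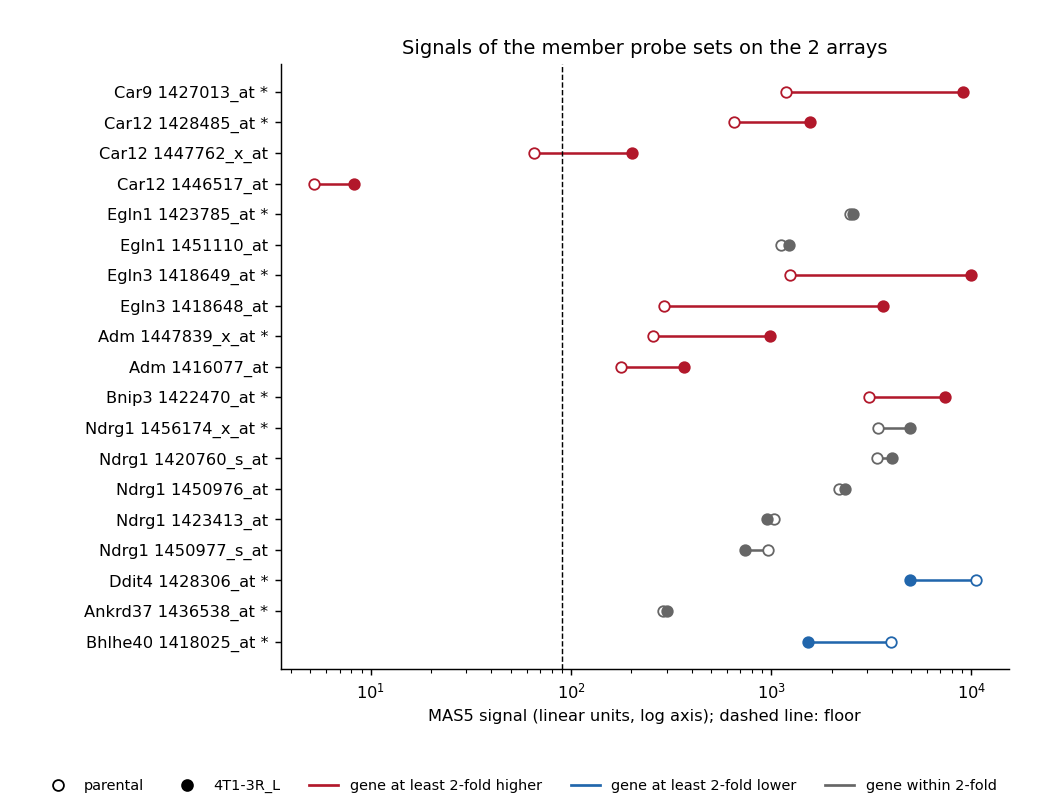
MAS5 signal (linear units on a log axis) of the 19 member probe sets on the parental array (open circles) and the 4T1-3R_L array (filled circles), coloured by the call of the gene. An asterisk marks the probe set that represents the gene, and the dashed line is the floor of 90.6. The lines of Car9 and both Egln3 probe sets are the longest, while those of Ddit4 and Bhlhe40 run the other way.

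**Figure D2:**
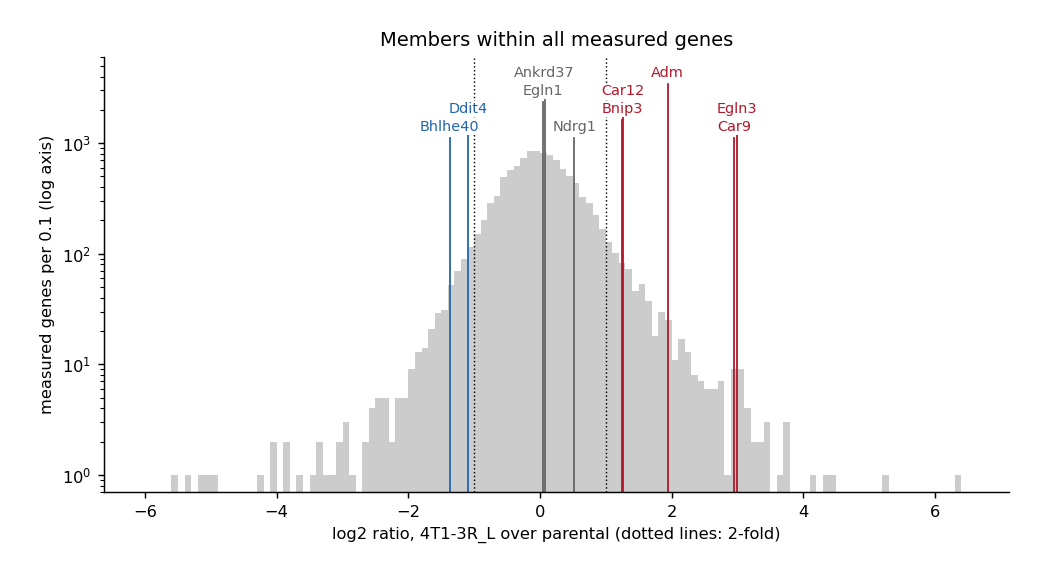
Number of measured genes (log axis) by log2 ratio of 4T1-3R_L over parental signal, in bins of 0.1, with the 10 members as coloured lines and the 2-fold limits dotted. Car9 and Egln3 stand in the upper tail, and Egln1 and Ankrd37 near the peak.

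The oxygen sensors themselves differed from each other. Egln3, an inducible prolyl hydroxylase that limits HIF when oxygen returns, gave a signal of 1241.0 in the parental line and 9893.4 in 4T1-3R_L, which is 7.97-fold higher. Its other probe set read 290.2 and 3623.2, or 12.5-fold. Egln3 ranked 30 among the 11135 measured genes, so that 0.260% of them had a higher log2 ratio. Egln1, the prolyl hydroxylase that sets HIF levels in most normal cells, read 2483.9 and 2561.3 (log2 ratio 0.04), with 0.12 on its other probe set. The difference between both log2 ratios was 2.95, and multiplying an array by a constant does not alter it. Egln2, the remaining family member, had a log2 ratio of 0.44.

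The rest of the HIF pathway lay closer to the median gene than Egln3 did. Of 18 measured genes for HIF subunits, co-activators and the degradation machinery, 0 differed by 2-fold or more in either direction, and 9 had positive log2 ratios. Of all measured genes 6.22% were up and 4.48% down as far. In lists this short, here and below, a count of 0 or 1 cannot be told apart from that background. Hif1a transcript read 6726.1 in parental and 11689.2 in 4T1-3R_L cells, a log2 ratio of 0.80, and its second probe set gave 1.04. Epas1, which encodes the other main alpha subunit, was under the floor on both arrays (25.3 and 29.4). The partner Arnt had a log2 ratio of 0.64. Vhl, at 0.19, and Hif1an, at -0.21, which hydroxylates HIF on an asparagine, lay near the median gene, although the second probe set of Vhl gave -0.65. With the hybridisation controls as the scale, Eloc (-1.04) and Siah1a (-1.44) passed 2-fold on the lower side, as 21.0% of all measured genes did. With plain _at probe sets 1 gene, Hif1a, passed it on the upper side. The list's extremes were Os9 at 0.90 and the ubiquitin ligase gene Siah1a at -0.85. HIF alpha is controlled mainly as a protein, which these arrays do not measure.

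The carbonic anhydrases on the list were both higher. Car9 and Car12 encode cell-surface enzymes that turn carbon dioxide into bicarbonate and protons outside the cell. Car9 read 1179.7 in the parental line and 9119.0 in 4T1-3R_L, 7.73-fold higher, and 0.287% of measured genes had a higher log2 ratio. It has a single probe set. Car12 read 653.3 and 1562.9, 2.39-fold higher, and on a second probe set (65.1 and 202.4) it was at least 2.23-fold higher against the floor. A further Car12 probe set was under the floor on both arrays, at 5.2 and 8.2. The log2 ratio of Car9 exceeded that of Car12 by 1.69.

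No other carbonic anhydrase was 2-fold apart among the 7 measured of 16 in the family, the remaining 9 being under the floor on both arrays. Cytosolic Car13 had a log2 ratio of 0.28 and mitochondrial Car5b of -0.22. Of 9 measured transporters and subunits that move lactate, bicarbonate or protons across membranes, 0 differed by 2-fold or more. When scaled to the hybridisation controls 2 were down as far, as were 21.0% of all measured genes. The list included the anion exchanger Slc4a2 at a log2 ratio of 0.59, the lactate transporter chaperone Bsg at 0.56 and the bicarbonate cotransporter Slc4a4 at -0.72. Of the lactate exporters, the HIF-inducible Slc16a3 was under the floor on both arrays.

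Adm, which encodes the vasodilator peptide adrenomedullin, was higher on both of its probe sets. The probe set with the stronger signal read 257.0 in parental and 986.4 in 4T1-3R_L cells, 3.84-fold apart, but it is of the _x_at type, whose probes may match other transcripts. The plain probe set read 178.7 and 367.3, a 2.06-fold difference. The spread of 0.90 between both log2 ratios compares with a median spread of 0.52 and a 90th percentile of 1.15 over 5377 genes with several probe sets. Of 5 measured genes for the receptors, related peptides and processing of adrenomedullin, 1 was up 2-fold or more. This was the receptor activity-modifying protein Ramp1, with a log2 ratio of 1.83, but of -0.24 on its second probe set. The receptor Calcrl read 38.0 and 97.4, at most just above the floor, and its partners Ramp2 and Ramp3 were under it on both arrays. The scavenger receptor Ackr3 had a log2 ratio of 0.58.

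Bnip3, a BCL2-family protein of the outer mitochondrial membrane that tags mitochondria for autophagy, read 3081.5 in parental and 7338.4 in 4T1-3R_L cells. The 2.38-fold difference rests on 1 probe set, and 3.83% of measured genes had a higher log2 ratio. Its log2 ratio of 1.25 was close to the 1.26 of Car12. Of 14 other measured mitophagy and autophagy genes, 1 was up and 0 were down by 2-fold or more. This was the autophagosome protein Map1lc3a at 2.17-fold (1.37 on the log2 scale on its second probe set). The kinase Pink1 had a log2 ratio of 0.60 and the cargo receptor Sqstm1 of -0.32. Under scaling to the hybridisation controls, which lowers the median measured gene from -0.01 to -0.55, Bnip3 came to 0.66 and Car12 to 0.67, both then under 2-fold.

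Ndrg1 and Ankrd37 showed smaller differences. Ndrg1, a stress-induced protein described as a metastasis suppressor in several carcinomas, is covered by 5 probe sets. The strongest, of the _x_at type like that of Adm, read 3425.9 in parental and 4905.6 in 4T1-3R_L cells, a log2 ratio of 0.52. The others gave 0.25, 0.11, -0.12 and -0.38, so the probe sets did not share a sign. Those at 0.11 and -0.12 are the plain _at probe sets. Of its relatives, Ndrg2 was 3.81-fold higher, with its parental signal, 100.3, only just over the floor, with a log2 ratio of 1.93 that became 1.18 with the floor at the 60th percentile. Ndrg4 was 2.45-fold higher, but its second probe set gave 0.19. Ndrg3 had a log2 ratio of 0.06. Ankrd37, a small ankyrin-repeat protein, read 287.0 and 302.3, a log2 ratio of 0.07. Scaled to the hybridisation controls, Ndrg1, Ankrd37 and Egln1 had log2 ratios of -0.07, -0.51 and -0.54, against -0.55 for the median gene.

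Ddit4 and Bhlhe40 went against the 5 members that were up 2-fold or more. Ddit4, also called REDD1, restrains the growth kinase complex mTORC1 and responds to glucocorticoids, DNA damage and amino acid stress as well as to HIF. It read 10495.9 in parental and 4922.6 in 4T1-3R_L cells, 2.13-fold lower, and 3.48% of measured genes had a lower log2 ratio. Bhlhe40, a transcriptional repressor that also acts in the circadian clock, read 3951.7 and 1533.2, 2.58-fold lower, with 1.65% of measured genes below it. Each has 1 probe set on these arrays. The log2 ratio of Bnip3 exceeded that of Ddit4 by 2.34 and that of Bhlhe40 by 2.62.

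Other genes that restrain mTORC1 lay on both sides of the median gene. Of 16 measured, 4 were up and 0 were down by 2-fold or more, against 6.22% and 4.48% of all measured genes. The list median was 0.05. Scaling to the hybridisation controls made the counts 2 up and 1 down, against 2.15% and 21.0% of all measured genes. The thioredoxin-binding protein Txnip was 5.82-fold higher (1107.5 against 6446.6), the mTOR-binding inhibitor Deptor 3.83-fold, the sestrin Sesn3 2.75-fold and the arginine sensor relative Castor2 2.10-fold. A second probe set gave log2 ratios of 2.34 for Txnip and 2.17 for Deptor, against 0.81 for Sesn3 and 0.94 for Castor2. The Ddit4 paralogue Ddit4l was under the floor on both arrays. Of 13 measured clock genes other than Bhlhe40, 1 was up 2-fold or more, Per3 at 2.49-fold, and 0 were down as far. Cry1 had a log2 ratio of 0.98 and Per1 of 0.52, while Nfil3 had -0.46.

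HIF targets beyond these 10 were measured for comparison. Of 33 further measured targets outside glycolysis, 10 were up and 1 was down by 2-fold or more, 26 had positive log2 ratios, and the median was 0.41. Of all measured genes 6.22% were up and 4.48% down as far. With median centring 8 of these targets were up as far (5.25% of all measured genes), and with the median over probe sets 7 (4.03%). This list too was chosen with earlier results of these data known. The secreted hormone Stc1 was 13.6-fold higher, with a parental reading of 107.5 near the floor, and had a log2 ratio of 3.11 in place of 3.76 with the floor at the 60th percentile. The collagen prolyl hydroxylase subunits P4ha2 and P4ha1 were 6.49-fold and 2.86-fold higher, the lysyl hydroxylase Plod1 3.49-fold and the disulphide oxidase Ero1a 3.11-fold. Selenbp1 was at least 3.06-fold higher, but 0.72 on the log2 scale with the floor at the 60th percentile. The 1 lower gene was the vasoconstrictor peptide gene Edn1, at 2.45-fold, named after its value was seen. It came under 2-fold with that floor.

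Glycolytic HIF targets had a median log2 ratio of 0.50, and of 16 measured 5 were up and 0 were down by 2-fold or more. The shares of all measured genes were 6.22% and 4.48%. Eno2 was 4.43-fold higher, Aldoc 2.71-fold, Slc2a1 2.43-fold, Pdk1 2.08-fold and Pfkp 2.05-fold. The parental signal of Eno2, 104.2, was near the floor, and its log2 ratio of 2.15 became 1.45 with the floor at the 60th percentile. Second probe sets of Pdk1 and Pfkp gave log2 ratios of 0.75 and 0.19. Scaling to the hybridisation controls left 1 glycolytic target and 5 of the targets outside glycolysis up by 2-fold or more, with 4 of the latter down as far. Under that scaling 2.15% of all measured genes were up and 21.0% down by 2-fold or more.

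**Figure D3:**
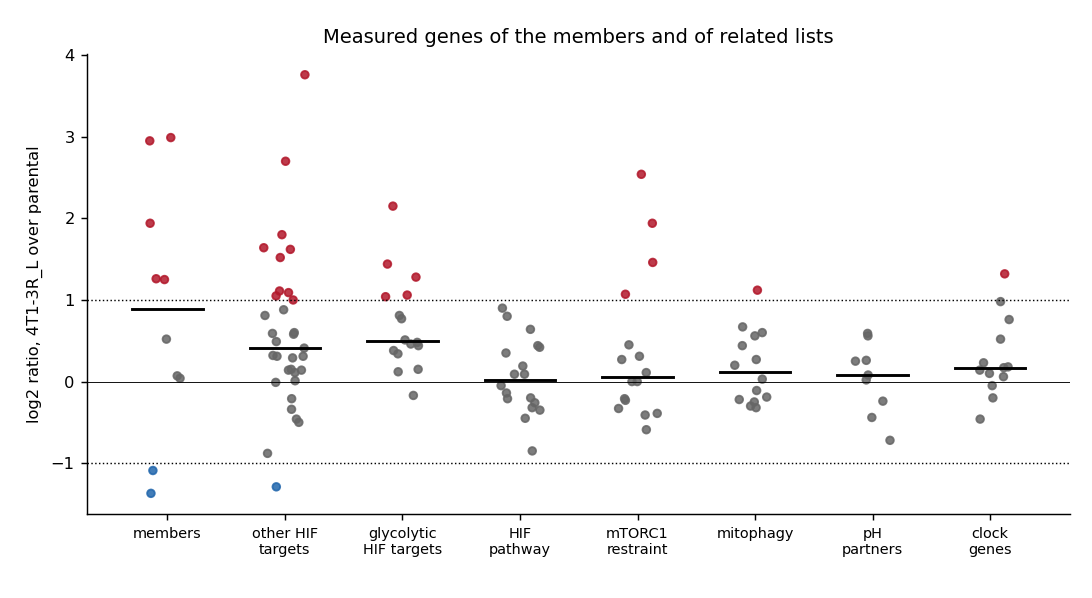
Log2 ratio of 4T1-3R_L over parental signal for each measured gene (points) of the 10 members and of 7 related lists, with the list median as a bar and the 2-fold limits dotted. The members spread from -1.37 to 2.99, while all 18 HIF pathway genes lie between -0.85 and 0.90.

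The promoters of members that were higher, level and lower are shown because HIF acts through the core motif they may hold. RefSeq promoter windows on GRCm38.p6, from 250 bases before to 50 after the annotated start, were matched by symbol for 8 of the 10 members, all but Ndrg1 and Bhlhe40. Sequences run 5′ to 3′ on the strand of the gene. Capitals mark ACGTG or GCGTG on that strand, or their reverse complements CACGT and CACGC. The windows are chr4:43506776-43507075 (plus strand) for Car9, chr12:54203825-54204124 (minus) for Egln3, chr7:138909457-138909756 (minus) for Bnip3, chr8:45999801-46000100 (minus) for Ankrd37 and chr10:59951721-59952020 (minus) for Ddit4.
Car9: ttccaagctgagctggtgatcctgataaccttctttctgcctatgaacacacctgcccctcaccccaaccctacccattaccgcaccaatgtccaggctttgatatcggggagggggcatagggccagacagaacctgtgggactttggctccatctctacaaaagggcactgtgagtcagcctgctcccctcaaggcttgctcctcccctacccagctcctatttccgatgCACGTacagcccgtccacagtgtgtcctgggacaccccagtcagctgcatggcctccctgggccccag
Egln3: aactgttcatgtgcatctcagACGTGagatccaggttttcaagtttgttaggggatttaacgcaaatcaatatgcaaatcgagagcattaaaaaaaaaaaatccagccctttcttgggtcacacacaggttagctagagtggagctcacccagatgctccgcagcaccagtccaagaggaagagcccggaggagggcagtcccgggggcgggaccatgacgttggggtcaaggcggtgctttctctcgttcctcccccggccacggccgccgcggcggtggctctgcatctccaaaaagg
Bnip3: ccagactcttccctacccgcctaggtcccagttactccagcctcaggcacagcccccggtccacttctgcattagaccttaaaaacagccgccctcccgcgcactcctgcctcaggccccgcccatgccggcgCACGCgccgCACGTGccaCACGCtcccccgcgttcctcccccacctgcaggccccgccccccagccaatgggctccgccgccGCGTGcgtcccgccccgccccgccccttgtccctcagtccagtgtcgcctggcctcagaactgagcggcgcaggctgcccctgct
Ankrd37: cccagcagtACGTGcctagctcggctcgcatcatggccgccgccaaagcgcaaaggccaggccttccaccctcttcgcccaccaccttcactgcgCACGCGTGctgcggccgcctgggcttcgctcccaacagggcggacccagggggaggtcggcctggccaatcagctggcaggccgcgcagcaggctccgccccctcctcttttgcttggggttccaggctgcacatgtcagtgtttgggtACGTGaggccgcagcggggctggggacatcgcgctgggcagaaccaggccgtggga
Ddit4: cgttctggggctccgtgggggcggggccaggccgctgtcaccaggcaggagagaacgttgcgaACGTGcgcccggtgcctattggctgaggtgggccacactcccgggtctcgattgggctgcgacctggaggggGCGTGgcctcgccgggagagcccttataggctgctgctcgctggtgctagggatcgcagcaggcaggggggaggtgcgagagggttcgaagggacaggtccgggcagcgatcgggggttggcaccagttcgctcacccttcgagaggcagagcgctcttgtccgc

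A core stood in 7 of the 8 windows, against 43.8% of all 32851 promoter windows in the table. With ACGTG alone it was 6 of 8, against 19.6%. The members were chosen as textbook HIF targets, so these shares describe that choice and not the arrays. Car9 held 1 match, on the opposite strand from base -18 to -14, next to the start. Egln3 held 1 as well, far upstream at -229 to -225. Bnip3 held 4 separate matches between -117 and -31, as 2.44% of all windows did with at least that many. One of them is the palindrome CACGTG, which reads as ACGTG on both strands and is also the E-box letters that Bhlhe40 binds; 7.15% of all windows hold it. Ankrd37, level between the arrays, held 3 separate matches, 1 of them at -6 to -2. Ddit4, lower in 4T1-3R_L cells, held 2, at -187 to -183 and -115 to -111. Adm held 2 and Egln1 2, the latter in a window of 86.0% G and C. Car12, higher in 4T1-3R_L cells, held none in this window. Within these 8 windows the number of matches thus did not order the members by their log2 ratios. Sites outside the windows were not looked at, and a link between matches and expression was not tested. The cores hold a CG pair, and the windows of Bnip3 (71.7% G and C), Ankrd37 (69.0%) and Ddit4 (69.0%) are richer in G and C than the median window (52.7%). A match is a description of the letters and no evidence of binding.

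**Figure D4:**
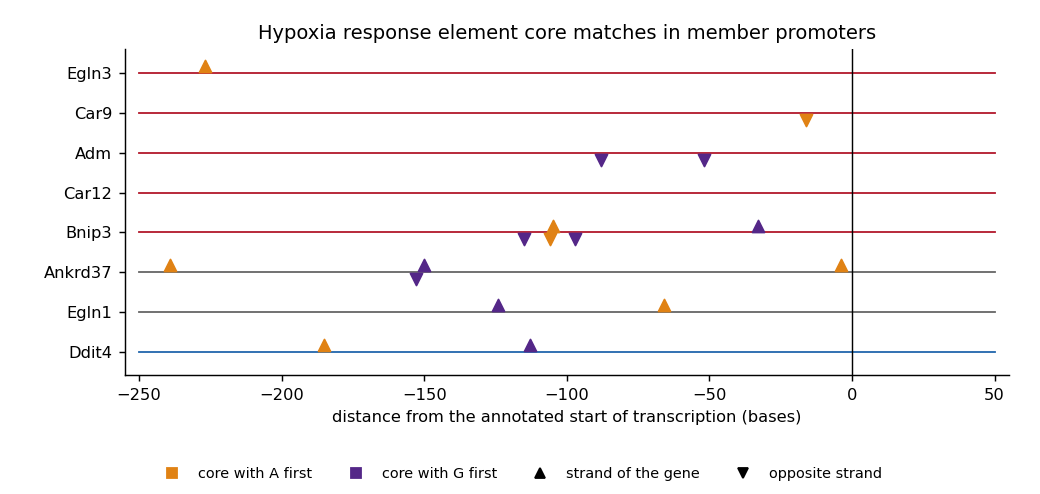
Positions of hypoxia response element cores in the promoter windows of 8 members, by distance from the annotated start (bases), ordered by log2 ratio with the highest on top. Upward triangles are matches on the strand of the gene and downward triangles on the opposite strand; Car12 has none and Bnip3 has 4 separate ones.

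**Figure D5:**
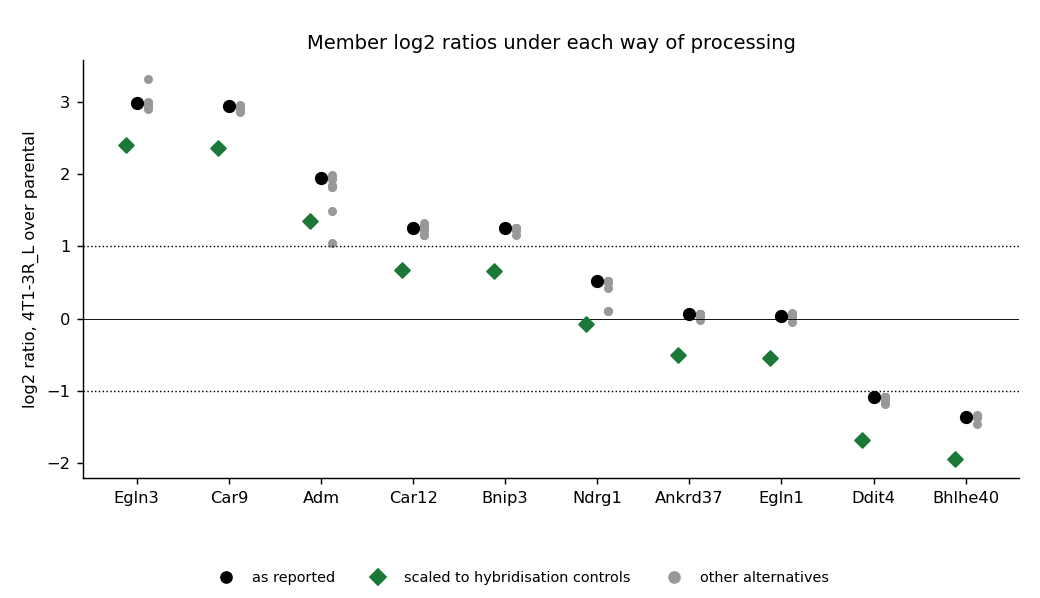
Log2 ratio of each member as reported (black), with arrays scaled to the hybridisation controls (green diamonds) and under the other 10 alternatives (grey). With each alternative taken alone, Egln3, Car9 and Adm stay above the upper 2-fold line and Ddit4 and Bhlhe40 below the lower one. Car12 and Bnip3 drop under the upper line with the hybridisation controls.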

How the data were processed

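The authors made the values, deposited as linear intensities for each probe set, with MAS5, per the submitters' processing notes. Its version and scaling target were not stated there, nor were detection calls. Each array was rescaled to a common mean that leaves out the highest and lowest 2% of probe sets, which changed nothing. Of 45101 probe sets, 34945 other than controls named a single gene in the platform annotation, and 932 named several and were left out. Signals under 90.6, the median of both arrays, were raised to that floor before log2. Each gene took its brightest probe set by mean log2 signal and counted as measured if either array reached the floor there, as 11135 of 18193 genes did. A fold against a signal under the floor is a lower bound. A call is a 2-fold difference, with no test at 1 array a group. The members and lists were chosen with earlier results of these data known. Named genes are all members, the main HIF subunits and regulators, and up to 6 genes a list, those farthest from a log2 ratio of 0. Cell type markers and Slc16a3, Ramp2, Ramp3, Ddit4l and Edn1 were named after their values were seen. Python 3.11.15, pandas 2.3.3 and statsmodels 0.14.6 were used, and the procedure was tested on simulated data.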

Additional observations from a re-analysis of the deposited data

How the results depend on the processing

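Each member was recomputed under 10 alternatives (median centring, quantile normalization, loess, hybridisation control scaling, floors at the 40th and 60th percentile, a pseudocount of 32 with and without the filter, the median over probe sets, and plain _at probe sets) and under 1 more chosen after seeing the data, signals at least 2 times the floor on both arrays. Some of these values could not move. All 10 members had signals at least 2 times the floor on both arrays, so both floors and strong signals returned the reported values. The 5 members with 1 probe set were likewise fixed under the median over probe sets and plain _at probe sets. The pseudocount gave the same member values with and without the filter. With these included, 108 of 110 member values kept their side of 2-fold. The exceptions were Car12 (0.67) and Bnip3 (0.66) with hybridisation control scaling, which left 3 of 10 members up 2-fold or more in place of 5. Under it 2.15% of measured genes were up and 21.0% were down by 2-fold or more. The median of the members then exceeded that of all genes measured by 0.85, against 0.89 as reported. This excess was smaller with the median over probe sets (0.63) and with plain _at probe sets (0.60). The ratio of Adm ranged from 1.04 to 1.99, the lowest with plain _at probe sets. Each alternative was run alone, so Adm was not recomputed with plain _at probe sets and hybridisation control scaling together. Scaling to the poly-A controls, which were higher by 1.11, was not run. In the HIF pathway, 2 genes were down 2-fold or more with hybridisation control scaling, and 1 was up as far with plain _at probe sets. Small lists moved most in genes up 2-fold or more. The Ndrg family had 1 in place of 2 with hybridisation control scaling, the median over probe sets, plain _at probe sets and strong signals. Clock genes had 0 in place of 1 with the first, second and last of these, and 2 with loess. Adrenomedullin pathway genes had 0 in place of 1 with the median over probe sets and with strong signals. With hybridisation control scaling, mitophagy genes had 0 in place of 1 and carbonic anhydrases 1 in place of 2, and 1 carbonic anhydrase was down 2-fold or more with the pseudocount and no filter. Glycolytic targets up 2-fold or more numbered 3 in place of 5 with median centring and 2 with plain _at probe sets. The causes were not tested. No paired analysis was possible because each group has 1 array. Leaving out a replicate was not run for the same reason.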
